A study of Azumapecten farreri with 9 samples.

Results

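miR-1175 and miR-750 were followed in hemocytes, the circulating immune cells, of a bivalve mollusc, the Zhikong scallop Azumapecten farreri (synonym Chlamys farreri). Every line of the deposited small RNA table named miR-1175 or miR-750 was taken, whatever its species prefix, arm or end variant, which gave 3 of 417 lines. The scallops had been injected with what the submitters call LPS stimulating exosomes (LPS is lipopolysaccharide, an outer membrane component of Gram-negative bacteria), with normal exosomes, or with phosphate-buffered saline (PBS), and each group has 3 small RNA libraries. Exosomes are small vesicles that cells release and that can carry RNA to other cells. The sources used here do not say how LPS was applied, nor give the source and dose of the exosomes, the time after injection, or the age and number of the animals. Nor do they tie each library to an animal of its own, so a p-value reflects variation among libraries that could be technical.

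MicroRNAs are short RNAs cut from hairpin precursors and loaded into Argonaute proteins, which they guide to messenger RNAs mainly through the seed, bases 2 to 8 of the mature strand. miR-750 and miR-1175 are families of the protostomes, the branch of animals that holds molluscs, annelids and arthropods. In many of these genomes their hairpins lie next to each other and the 3p arm gives the main mature strand. In mosquitoes, where miR-1175 was found early, it is best known from the midgut. No role in scallop hemocytes is taken as given here.

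All 3 lines are 3p arms. mle-miR-1175-3p and mle-miR-750-3p carry names registered for the sea slug Melibe leonina. cte-miR-1175-3p_R+2 is named from the annelid Capitella teleta, with a suffix for 2 more bases at the right end. The sequences are shown 5′ to 3′ as DNA letters, as deposited, with the seed in capitals, because the seed sets which targets each miRNA can pair with.
mle-miR-1175-3p: tGAGATTCaactcctccaactgc
cte-miR-1175-3p_R+2: tGAGATTCaactcctccaactgctt
mle-miR-750-3p: cCAGATCTaactcttccagctca

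The long form is thus the whole of mle-miR-1175-3p with TT added at its 3′ end, and both carry the seed GAGATTC. miR-750-3p has the seed CAGATCT. None of the other 414 lines had either seed at bases 2 to 8, and none contained a member sequence or lay within one. No genome was used here, so whether the TT is encoded next to the mature strand or added later was not tested, and no positions are given.

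Set base against base from the 5′ end, the miR-1175-3p and miR-750-3p sequences were identical at 15 of 23 positions, or 65.2%. The identical bases are in capitals here.
mle-miR-1175-3p: tgAGATtcAACTCcTCCAaCTgc
mle-miR-750-3p: ccAGATctAACTCtTCCAgCTca
Counted from 1 at the 5′ end, with the miR-1175 base first, the differences were T1C, G2C, T7C, C8T, C14T, A19G, G22C and C23A. Of these, 3 fall among the 7 bases of the seed. Among the 414 lines that are no members, the highest count of bases identical to miR-1175-3p in the same frame was 11.

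The 9 libraries differed in depth and in total. The deposited values are normalized counts, here called values, with totals over the listed lines of 4002817 to 6337019 per library. Within each library nearly all values are whole multiples of 1 step, and if 1 step is 1 read the listed lines held 7063405 to 15676183 reads. All 27 values of the 3 lines were even multiples of the step, as were those of 82 of the 122 other lines that were above 0 and whole in every library. Such a line may count each read as 2 steps, which was not tested, so read numbers are given on the lower reading and levels of different lines may be off by that factor against each other. On that reading, 21969 to 46755 reads per library stand behind mle-miR-1175-3p, 490 to 1058 behind mle-miR-750-3p and as few as 32 behind the long form. Among miRNA numbers known from other tissues, 5 muscle lines, 1 neural line and 6 epithelial and sensory lines were tested. By limma, 1 epithelial and sensory line, mle-miR-263a-5p, named after its values were seen, was higher with LPS exosomes than with PBS and than with normal exosomes. This stands beside 3.09% and 3.70% of all tested lines, and 0 others were called. At an unadjusted limma p under 0.05, 1 such line passed in normal exosomes vs PBS and 2 between the exosome groups. Of the 6 lines, 2 had positive log2 fold changes in LPS exosomes vs PBS, 1 in normal exosomes vs PBS and 5 between the exosome groups. Their medians were -0.23, -0.55 and 0.74, beside -0.06, -0.0042 and -0.15 for all tested lines. The other miR-263 line tested, cte-miR-263_R+2_1ss10GT, was at -0.37 in LPS exosomes vs PBS and -1.23 in normal exosomes vs PBS (limma adjusted p = 0.103 for the latter). It thus lay higher with LPS exosomes than with normal exosomes, the same direction as mle-miR-263a-5p. No miRNA that marks scallop hemocytes was on a list here, so the cell label was not checked against markers. In mean value, the muscle line mle-miR-133-3p_2ss15TC19TC stood at 180636 and the epithelial and sensory line mle-miR-96a-5p_1ss19GC at 95518, both above mle-miR-1175-3p at 35600. The muscle line mle-miR-1-3p_1ss21AT stood at 2823 and the neural line lgi-miR-7 at 553. In whole hemocyte RNA, fewer cells of a type and less RNA per cell cannot be told apart.

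miR-1175-3p was among the most abundant miRNAs of these cells. Its mean value over the 9 libraries was 35600 (35599.6 before rounding), the 10th highest of all lines as deposited, and it held 0.690% ± 0.0936 of the listed signal (SD, n = 9). The neighbours above it were mle-miR-2b-3p_1ss11AT with a mean value of 70616 and mle-miR-71-5p with 43856. Below it came cte-miR-92b_2ss10GC11TG and cte-miR-92c_L+1R-1_1ss10TC, which share 1 sequence and a mean value of 29616. These ranks rest on the step: with every line that is even in all 9 libraries halved, miR-1175-3p had a mean value of 17800 (17799.8) and ranked 14th, below the miR-92 sequence, which is not even. With its own values alone halved it ranked 17th. The mean value of miR-71-5p was 44606 ± 1363 with LPS exosomes, 46660.1 ± 4280.4 with normal exosomes and 40302 ± 5005 with PBS (SD, n = 3 each). Values of miR-71-5p and miR-1175-3p overlapped with normal exosomes and with PBS, so their order there is within the spread, whereas with LPS exosomes every miR-71-5p value was the higher. Both of these lines are even, so halving leaves their order as it is.

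The value of mle-miR-1175-3p was 34051, 35294 and 24899.6 with LPS exosomes (replicates 1 to 3), 50883, 42509.8 and 32377 with normal exosomes, and 34641, 32682 and 33058 with PBS. PBS libraries lay close together, the highest value was in normal exosomes replicate 1 and the lowest in LPS exosomes replicate 3, and each pair of groups overlapped. The values of 29.0% of all tested lines did not overlap between LPS exosomes and PBS, nor did those of 25.3% between normal exosomes and PBS and of 25.3% between the exosome groups. Group means were 31415 ± 5677 with LPS exosomes, 41923 ± 9267 with normal exosomes and 33460.2 ± 1040.1 with PBS (SD, n = 3 each).

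The groups were compared with limma on log2(value + 1) over the 162 lines that reached a value of 10 in at least 3 libraries, with Benjamini-Hochberg adjustment over those lines and a call at an adjusted p under 0.05. In each of the 3 comparisons, 4.32% of the tested lines were called. All 3 members were tested and 0 were called by limma in any comparison, also at an unadjusted p under 0.05 (0 in each).

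For miR-1175-3p in LPS exosomes vs PBS, the log2 fold change was -0.11 ± 0.19 (SE), with a 95% interval of -0.54 to 0.33 (limma adjusted p = 0.796). In normal exosomes vs PBS it was 0.30 ± 0.19, with an interval of -0.13 to 0.74 (limma adjusted p = 0.446). Between LPS exosomes and normal exosomes it was -0.41 ± 0.19, with an interval of -0.84 to 0.02 (limma adjusted p = 0.323, unadjusted 0.0619). A doubling against PBS lies outside these intervals. Differences within them remain possible, though none was called with 3 libraries a group.

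These differences shrank when each library was given the same total. As a share of the listed signal, miR-1175-3p held 0.645%, 0.775% and 0.622% with LPS exosomes, 0.803%, 0.741% and 0.591% with normal exosomes, and 0.807%, 0.562% and 0.659% with PBS. On this scale the highest library was a PBS one, and all groups overlapped again. Shares did not overlap for 21.6%, 22.2% and 27.2% of all tested lines in LPS exosomes vs PBS, normal exosomes vs PBS and LPS exosomes vs normal exosomes. The log2 fold changes became 0.019 in LPS exosomes vs PBS, 0.08 in normal exosomes vs PBS and -0.06 between the exosome groups, against medians over all tested lines of 0.11, -0.22 and 0.16 (as deposited, -0.06, -0.0042 and -0.15). The sign in LPS exosomes vs PBS therefore depends on the scaling. The shrinking also does: with median-of-ratios scaling the log2 fold changes of miR-1175-3p were -0.08, 0.28 and -0.35 in the same order. With quantile normalization they were 0.08, 0.19 and -0.11.

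**Figure D1:**
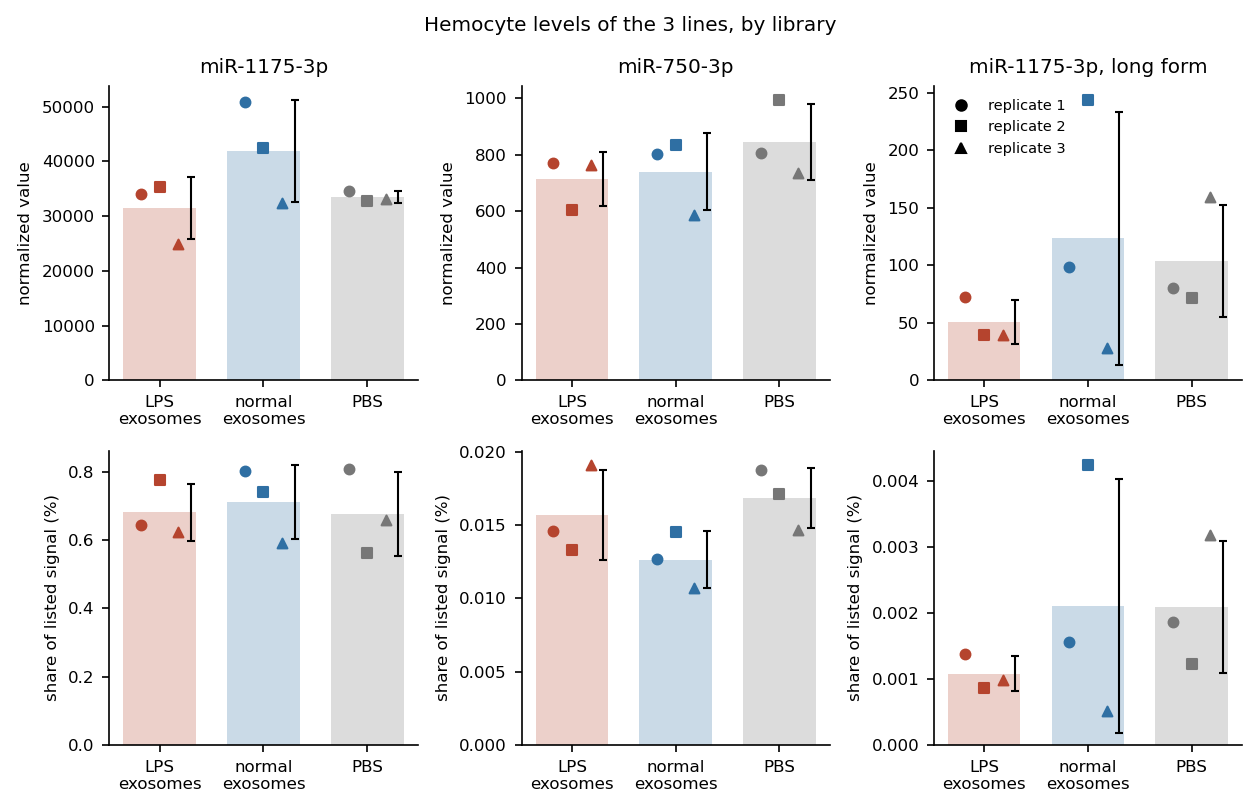
Levels of the 3 lines in each library, as deposited normalized values (top) and as percent of the listed signal (bottom), with points for libraries, bars for group means and lines for 1 SD (n = 3). The value of miR-1175-3p is highest in normal exosomes replicate 1 at 50883, and its shares lie between 0.562% and 0.807% with all groups overlapping.

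miR-750-3p, the neighbour family, was far lower. Its mean value over the 9 libraries was 766, the 44th highest as deposited, and 0.0150% ± 0.00280 of the signal (SD, n = 9). With all even lines halved its mean value was 383 and it ranked 45th, and with its own values alone halved it ranked 56th. It stood at 771, 604 and 765 with LPS exosomes, 802, 833 and 585 with normal exosomes, and 805, 994 and 735 with PBS. The highest library was PBS replicate 2 and the lowest normal exosomes replicate 3, and all groups overlapped.

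The log2 fold change of miR-750-3p in LPS exosomes vs PBS was -0.24 ± 0.23 (SE), with a 95% interval of -0.75 to 0.27 (limma adjusted p = 0.591). In normal exosomes vs PBS it was -0.20 ± 0.23, with an interval of -0.71 to 0.32 (limma adjusted p = 0.688). Between the exosome groups it was -0.05 ± 0.23, with an interval of -0.56 to 0.47 (limma adjusted p = 0.940), and with equal totals the sign turned, to 0.30 (limma adjusted p = 0.597).

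As a share of signal, miR-750-3p held 0.0127%, 0.0145% and 0.0107% with normal exosomes against 0.0187%, 0.0171% and 0.0147% with PBS. Here the groups did not overlap, by a narrow gap between 0.0145% and 0.0147%. On the same measure 17.3% of all tested lines lay lower in every normal exosome library than in any PBS library, and with equal totals the log2 fold change of miR-750-3p was -0.42 (limma adjusted p = 0.492). The LPS exosome libraries, at 0.0146%, 0.0133% and 0.0191%, overlapped with both.

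**Figure D2:**
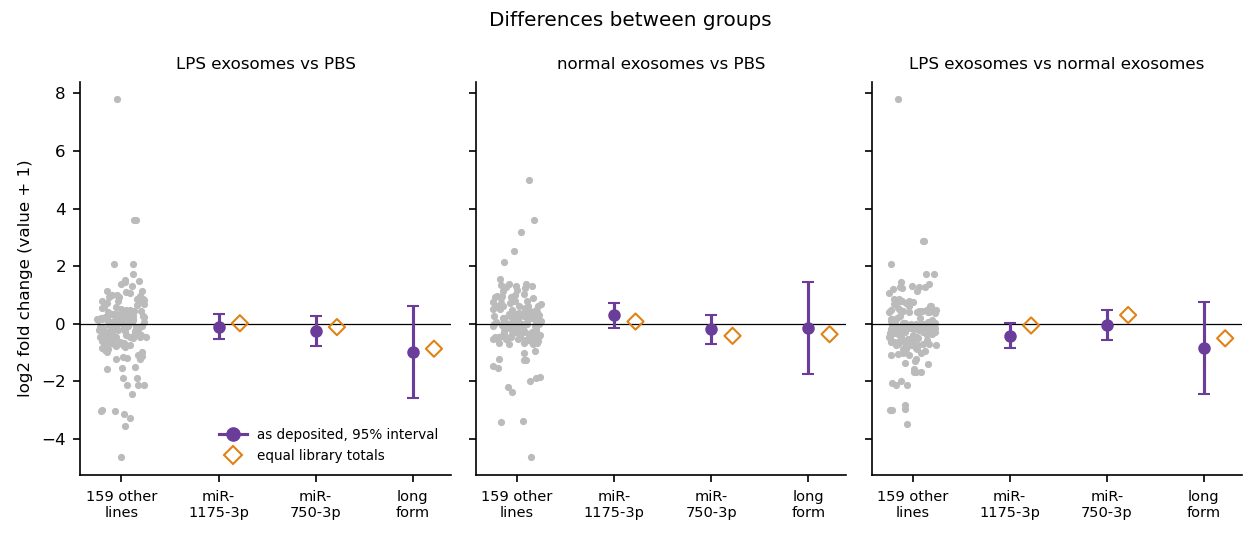
Log2 fold changes of value + 1 in the 3 comparisons, with the 159 other tested lines in grey, the 3 members with 95% intervals from limma (filled circles), and their values with equal library totals (open diamonds). Every member interval spans 0, and the long form has the widest, from -2.59 to 0.61 in LPS exosomes vs PBS.

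The ratio of the 2 miRNAs within a library is not changed by any single factor per library, though quantile normalization, which is no such factor, does change it. miR-1175-3p stood 47.3 ± 10.7 times above miR-750-3p (SD, n = 9), from 32.5 in LPS exosomes replicate 3 to 63.4 in normal exosomes replicate 1. Put the other way, there were 2.26, 1.71 and 3.07 of miR-750-3p per 100 of miR-1175-3p with LPS exosomes, 1.58, 1.96 and 1.81 with normal exosomes, and 2.32, 3.04 and 2.22 with PBS. Every normal exosome library lay below every PBS library, while the LPS exosome libraries spanned both.

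Against mle-miR-1175-3p, 17.4% of the 161 other tested lines were likewise lower in every normal exosome library than in any PBS library, and 21.1% did not overlap in either direction (24.2% in LPS exosomes vs PBS, 26.1% between the exosome groups). The ratio of miR-750-3p is thus 1 of many that lay lower. Relative to miR-1175-3p, the mean log2 ratio of miR-750-3p was -5.45 with LPS exosomes, -5.82 with normal exosomes and -5.32 with PBS.

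Other miRNAs known as neighbours in animal genomes lay both nearer to each other and further apart, taking the most abundant line of each number in 5 pairs chosen after values were seen. miR-750-3p and miR-1175-3p, which are both even, were 46.2-fold apart (geometric mean, n = 9). The miR-71-5p and miR-2 lines were 1.58-fold apart as deposited. Of these, only miR-71-5p is even, and with even lines halved its mean value was 21928 against 70616 for the miR-2 line. miR-317-3p and miR-34-5p were 3.47-fold apart, and lgi-miR-100 and eca-let-7c 5.09-fold. In contrast, the lines of miR-1 and miR-133 were 65.7-fold apart, and those of miR-125 and miR-100 222-fold. The last value holds only for a short form, cte-miR-125_R-3_1ss12CA, with a mean value of 3674. The predicted line PC-5p-1_12698927 is that sequence plus AGA and made up 99.8% of both forms. Its mean value was 2237630, above lgi-miR-100 at 770020. Over the libraries, the log2 ratio of miR-750-3p to miR-1175-3p had an SD of 0.34, within the range of the 5 other pairs. That range ran from 0.23 for miR-100 with let-7 to 0.58 for the short miR-125 form with miR-100. The ratio of miR-750-3p to miR-1175-3p varied more than either line alone (SD of log2(value + 1) 0.23 and 0.28). So did the ratios of miR-71 with miR-2 and miR-317 with miR-34. Those of miR-1 with miR-133 and miR-125 with miR-100 lay between the SDs of their lines. Only that of miR-100 with let-7 was below both. These are descriptions of single lines, with no test.

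**Figure D3:**
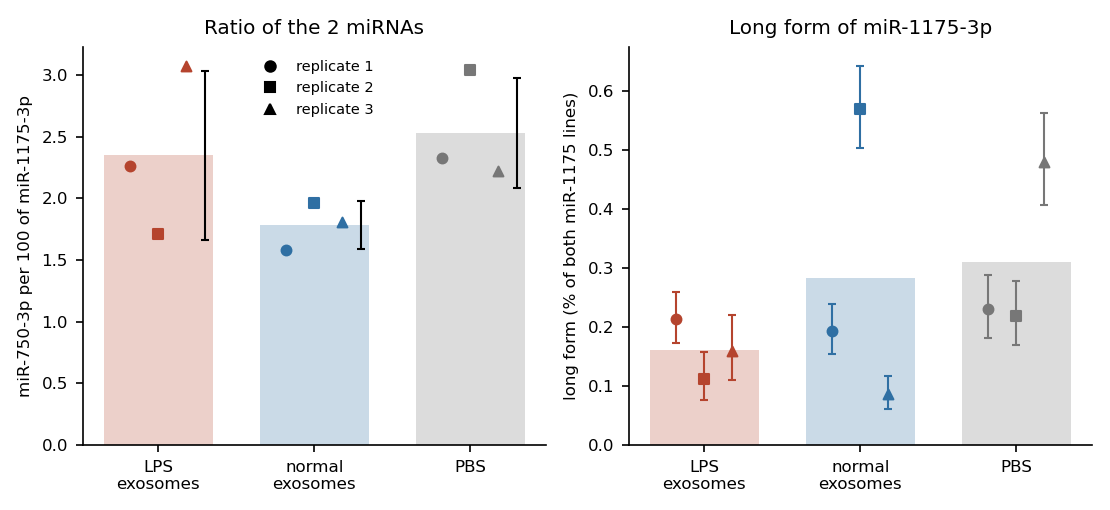
Left, miR-750-3p per 100 of miR-1175-3p in each library, with bars for group means and lines for 1 SD (n = 3). Right, the long form as percent of both miR-1175 lines, with exact 95% binomial intervals per library, which stand apart for normal exosomes replicate 2 at 0.570% and PBS replicate 3 at 0.481%.

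The long form of miR-1175-3p was a minor product. Its value was 72.8, 39.4 and 39.7 with LPS exosomes, 98.7, 243.8 and 28.0 with normal exosomes, and 80.0, 71.7 and 159.7 with PBS. The normal exosome group held both the highest and the lowest of the 9 libraries, an 8.72-fold range, and all groups overlapped.

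Its log2 fold change was -0.99 ± 0.71 (SE) in LPS exosomes vs PBS, with a 95% interval of -2.59 to 0.61 (limma adjusted p = 0.468). In normal exosomes vs PBS it was -0.14 ± 0.71, with an interval of -1.74 to 1.46 (limma adjusted p = 0.995), and its sign there turned with single libraries, to 0.67 without normal exosomes replicate 3 and 0.22 without PBS replicate 3. Between the exosome groups it was -0.85 ± 0.71, with an interval of -2.45 to 0.75 (limma adjusted p = 0.612). That value too rested on single libraries: leaving out normal exosomes replicate 2 gave -0.12, and leaving out replicate 3 of that group gave -1.66. In LPS exosomes vs PBS it was -0.63 without PBS replicate 3.

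As a share of both miR-1175 lines, the long form made up 0.213%, 0.112% and 0.159% with LPS exosomes, 0.194%, 0.570% and 0.0863% with normal exosomes, and 0.230%, 0.219% and 0.481% with PBS. The exact (Clopper-Pearson) 95% interval was 0.504% to 0.643% in normal exosomes replicate 2, from 46126 inferred reads of both lines, and 0.0617% to 0.117% in normal exosomes replicate 3, from 46355. These 2 libraries of 1 group therefore differed beyond counting error, which is all the intervals cover, since amplified reads are not independent molecules.

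The same comparison can be made for other miRNAs. There were 19 pairs of tested lines in which 1 line is the other plus 1 to 3 bases at the 3′ end, and 15 of them had both forms above 0 in every library. In 10 of these 15, normal exosomes replicate 3 had the lowest share of long form, the miR-1175 pair among them, and no other library was lowest in more than 1. The highest share was more scattered: it fell in normal exosomes replicate 1 for 4 pairs and in replicate 2 for 3.

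Among the pairs whose long form adds 2 bases and makes up under 5% of both, 5 had values above 0 throughout, and normal exosomes replicate 3 was lowest in all 5. The long share averaged 0.0361% for miR-133, 0.142% for let-7, 0.205% for miR-92, 0.252% for miR-1175 and 0.430% for miR-2. Both miR-1175 forms are even, but of the miR-2 forms only the long one is. If even lines count each read as 2 steps, the miR-2 share is overstated, so the order of these shares may change. The coefficient of variation of the long share over the 9 libraries (SD over mean) was 65.3% for miR-1175, against 20.4% to 49.0% for the other 4. Pairs of miR-31 and miR-34 were left out because their low long forms fell to 0 in some libraries. Their long shares were 0.393% ± 0.260 and 1.40% ± 1.06 (SD, n = 9), so a wide spread is not particular to miR-1175. For miR-92, as for miR-1175, the highest library was normal exosomes replicate 2, at 0.438%. PBS replicate 3, high for miR-1175, stood at 0.170% for miR-92. Whether library making or sequence trimming plays a part in these shares was not tested.

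**Figure D4:**
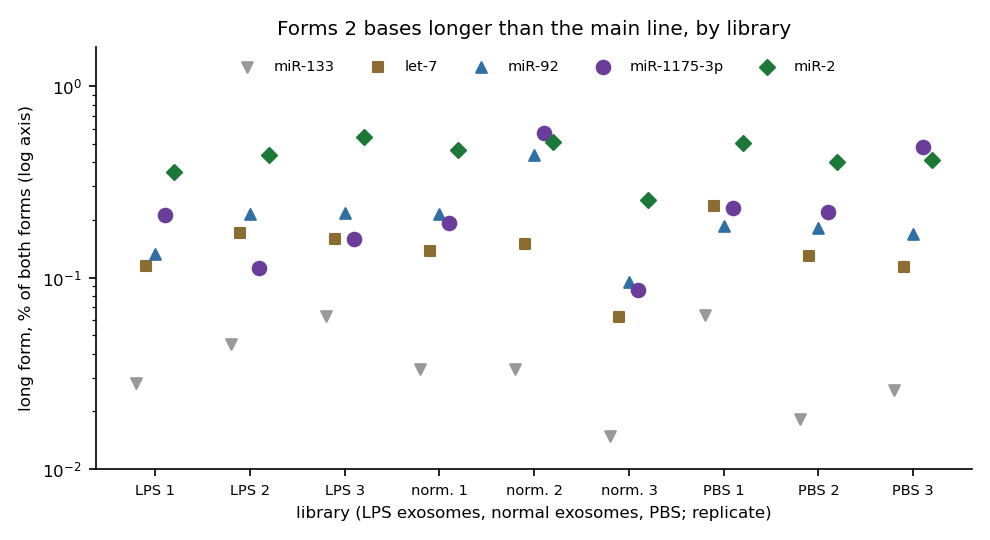
Share of the form with 2 added bases among both forms, on a log axis, for 5 miRNAs in each of the 9 libraries. Normal exosomes replicate 3 has the lowest share for all 5, and the miR-1175-3p points run from 0.0863% there to 0.570% in normal exosomes replicate 2.

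Across the 9 libraries the main miR-1175-3p line was 1 of the steadier miRNAs in its share of signal. Its coefficient of variation was 13.6%, the 7th lowest of the 106 tested lines with a mean value of 50 or more. That of miR-750-3p was 18.6% (18th) and that of the long form 68.6% (99th), against a median of 36.6% over the 106. On the deposited values, as SD of log2(value + 1), the order of the first 2 was reversed: 0.23 for miR-750-3p (13th) and 0.28 for miR-1175-3p (21st), with 0.98 for the long form (97th) and a median of 0.50. More reads stand behind abundant lines, and the part of depth in this order was not tested.

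**Figure D5:**
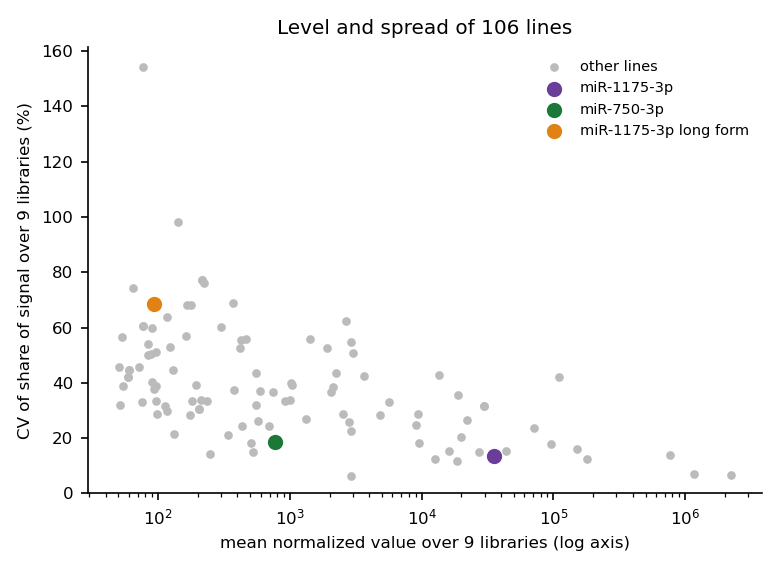
Coefficient of variation of the share of signal over the 9 libraries against the mean normalized value (log axis) for the 106 tested lines with a mean value of 50 or more. miR-1175-3p at 13.6% and miR-750-3p at 18.6% lie below the median of 36.6%, and the long form at 68.6% lies above it.

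The lines whose pattern over the 9 libraries was most like that of miR-1175-3p were found by the root mean square difference of log2(value + 1), each line centred at its own mean, among 103 other tested lines with a mean value of 50 or more. The nearest was PC-5p-1_12698927, the most abundant line of the table, at 0.18. It was followed by PC-3p-149_19704 (0.18), mle-miR-2b-3p_1ss11AT (0.19), PC-3p-957_1696 (0.19) and mle-miR-2a-3p_R-1 (0.20). A factor per library cancels in this measure. The median over the 103 lines was 0.52. Names that start with PC- are predicted by the authors' software and give no registered family. By sequence, PC-5p-1_12698927 is the miR-125 line cte-miR-125_R-3_1ss12CA plus AGA, and PC-3p-957_1696 is the miR-67 line mle-miR-67-3p_2ss12TA22AG plus T.

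miR-750-3p stood at 0.32 from miR-1175-3p on this measure, with 17 of the 103 lines nearer. Lines of small spread lie near each other on it whatever their pattern. The SD of log2(value + 1) was 0.28 for miR-1175-3p and 0.23 for miR-750-3p, both below 0.32, so this distance does not show a shared pattern. The long form, which shares all 23 bases of miR-1175-3p, stood at 0.82, with 88 lines nearer.

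miR-1175 and miR-750 were also set beside other families known from protostomes, a list of the numbers bantam, miR-2, miR-12, miR-76, miR-87, miR-277, miR-279, miR-317, miR-750, miR-1175 and miR-1993. It has 23 lines, of which 16 were tested, the 3 members among them. Most of the 13 others tested were forms of miR-2, and the rest were of miR-12, miR-87, miR-279 and miR-317. No line of bantam, miR-76, miR-277 or miR-1993 was tested, so counts and medians of the list rest largely on miR-2. Limma called 0 of the 16 in any of the 3 comparisons (0, 2 and 1 at an unadjusted p under 0.05 in LPS exosomes vs PBS, normal exosomes vs PBS and between the exosome groups), beside 4.32% of all tested lines in each. The median log2 fold changes of the list were 0.17, 0.26 and -0.22 in that order, beside -0.06, -0.0042 and -0.15 for all 162 lines.

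The most abundant of its other lines were 2 of miR-2, a family that represses cell death genes in Drosophila, 1 of miR-279, which limits JAK/STAT signalling in Drosophila, and 1 of miR-87. mle-miR-2b-3p_1ss11AT had log2 fold changes of -0.41 in LPS exosomes vs PBS and 0.08 in normal exosomes vs PBS, and mle-miR-2a-3p_R-1 had 0.22 and 0.53 (limma adjusted p = 0.307, 0.906, 0.393 and 0.0632). mle-miR-279-3p_R-1 had a mean value of 15520.1 ± 612.9 with LPS exosomes, 9084 ± 1210.2 with normal exosomes and 16251 ± 7828 with PBS (SD, n = 3 each). Its PBS replicate 1 stood at 7905, below the other 2 PBS libraries at 17419 and 23429. Without that library, normal exosomes vs PBS gave a log2 fold change of -1.16 (limma adjusted p = 0.00597), and with all 9 libraries -0.71 (limma adjusted p = 0.338). mle-miR-87-3p_1ss21TG had log2 fold changes of 0.35 in LPS exosomes vs PBS and 0.72 in normal exosomes vs PBS (limma adjusted p = 0.367 and 0.0764). In normal exosomes vs PBS, miR-1175-3p at 0.30 lay between these lines, with 67.9% of all tested lines at or below it.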

How the data were processed

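Small RNA from hemocytes was sequenced in 9 libraries, 3 per group. Per the labels' protocols, RNA was extracted with Trizol, prepared with a TruSeq kit for small RNA and read on an Illumina HiSeq, and reads were cleaned with ACGT101-miR, which discards adapter dimers, reads of low complexity, structural RNAs and repeats. The deposited signal values are normalized counts per the file headers; the sources used here do not give their normalization by the authors, the mapping tool, the build or the miRBase version.

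Values were fitted as log2(value + 1), with limma 3.58.1 (R 4.3.3, statmod 1.5.0, robust with a trend), in 1 model of 3 group means. A line was tested if 3 or more libraries reached a value of 10 (162 of 417 lines). The pseudocount understates changes of low lines. The fit was tested on simulated data. The step of a library is the largest of which at least 97% of values above 0 are whole multiples within 0.01; this held for 1981 of 1990 values. Inferred reads were used only for depth and for intervals (scipy 1.17.1), which cover counting error only.

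Members, lists and the naming rule (all members, lines sharing a sequence or seed, neighbours in level, the 5 nearest in pattern, and the 4 most abundant other lines of the protostome list plus any called) were chosen with earlier results of these data known. Comparisons of neighbouring miRNAs and of long forms, and ranks with even lines halved, were added after the values were seen. Alternatives covered scaling, pseudocount, filter, settings, replicate block, groups fitted, lines that share a sequence, and each library left out.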

Additional observations from a re-analysis of the deposited data

How the results depend on the processing

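Over 20 alternatives for each of 3 lines in 3 comparisons, 0 of 180 values passed the limma threshold (lowest adjusted p 0.139), and 12 changed sign. For miR-1175-3p in LPS exosomes vs PBS, where the log2 fold change was -0.11, it became 0.019 with equal library totals and 0.078 with quantile normalization, and ran from -0.20 to 0.052 with 1 library left out (0.052 without LPS exosomes replicate 3). For mle-miR-750-3p it became 0.067 in normal exosomes vs PBS with quantile normalization; between the exosome groups it became 0.30 with equal totals and 0.012 with median-of-ratios scaling, and ran from -0.21 to 0.070 with 1 library left out. For cte-miR-1175-3p_R+2 in normal exosomes vs PBS it became 0.26 with quantile normalization and ran from -0.87 to 0.67 with 1 library left out. The cause of these changes was not tested.

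The count of called lines over the whole table, 7 in each comparison, was less stable. In LPS exosomes vs PBS it was 4 for lines with a mean of 50 or more, 3 with only the 2 groups compared, and 0 to 10 with 1 library left out (0 without LPS exosomes replicate 1 or 2, 1 without PBS replicate 3, 3 without PBS replicate 2). In normal exosomes vs PBS it was 12 with equal totals (3 higher and 9 lower, against 3 and 4), 2 with quantile normalization, 4 without a filter, 3 for lines with a mean of 50 or more, 3 with the replicate block and 2 to 6 with 1 library left out (4 or fewer without any library other than LPS exosomes replicate 3 or PBS replicate 1). Between the exosome groups it was 3 with quantile normalization, 2 without trend and robust settings, and 1 to 10 with 1 library left out (4 or fewer without any LPS exosome library or normal exosomes replicate 1 or 3). For the protostome list, where 0 lines were called, mle-miR-279-3p_R-1 was called between the exosome groups when only these 2 were fitted (1 line; 0 to 1 with 1 library left out), and in normal exosomes vs PBS without PBS replicate 1 (0 to 1).

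The labels do not say that a replicate number marks a shared animal or batch. Deviations of same-numbered libraries correlated at -0.30 to 0.29. With 3 libraries a group, these correlations cannot decide whether same-numbered libraries share an animal or batch. With the replicate block, miR-1175-3p kept its log2 fold changes, with limma adjusted p of 0.762, 0.365 and 0.238 in LPS exosomes vs PBS, normal exosomes vs PBS and between the exosome groups. The mean share of signal of the 3 lines, 0.706%, was 0.691% to 0.722% with 1 library left out. The 2 planned count models were not run, because the deposited values are normalized and the unit of the inferred reads stayed unsettled. Depth limits the long form most: 32 inferred reads in its lowest library give a counting error of 17.7%, against 0.675% for miR-1175-3p at its lowest.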
